A study of Mus musculus with 20 samples.

Results

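The smooth muscle contractile genes described here are Acta2, Actg2, Myh11, Tagln, Cnn1, Lmod1, Des and Myocd. They were followed through mouse development on every probe set whose single annotated symbol is one of these names, which gave 13 probe sets of 34958 with a single symbol, and 8 genes of 18194. Wild-type C57BL/6 embryos of mixed sex, kept free of specific pathogens and taken whole apart from the amnion, were sampled daily from E7.5 until E10.5, with 3 arrays a stage, and every other day from E12.5 until E18.5, with 2 arrays a stage. That makes 20 arrays, all of the Affymetrix 430 2.0 mouse design, each holding RNA pooled from several embryos. The labels name no treatment or mutation, and stage is the only difference they give between groups. In such bulk RNA more cells of a type and more RNA per cell cannot be told apart.

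Smooth muscle lines blood vessels, gut, airways and urinary tract. It contracts when filaments of smooth muscle actin slide along filaments of smooth muscle myosin, without the regular sarcomeres of heart and skeletal muscle. Acta2 and Actg2 encode the actins of vascular and of visceral muscle, Myh11 the myosin heavy chain, Tagln and Cnn1 the actin-binding proteins transgelin (SM22) and calponin, Lmod1 a leiomodin that starts actin filaments, and Des the intermediate filament desmin. Myocd encodes myocardin, a coactivator that works with serum response factor (Srf) on short DNA elements called CArG boxes near many of these genes. Several members are also made outside smooth muscle. The embryonic heart transiently makes Acta2, Tagln and Cnn1, heart cells make Myocd, and desmin is a protein of all muscle types.

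Because CArG boxes are the known common feature of these genes, promoter sequences were searched for them. RefSeq promoter windows of the GRCm38.p6 build, from 250 bases before to 50 after a transcript start, were on hand for 4 of the 8 members, Acta2, Cnn1, Des and Lmod1. The windows of Acta2, Cnn1 and Des are shown, since these genes carry much of the results, each on the strand of its gene. Capitals mark CArG-like elements, 10-letter runs that match the CArG box except that 1 of its 6 inner A or T letters is G or C.
Acta2, chr19:34255324-34255623, minus strand: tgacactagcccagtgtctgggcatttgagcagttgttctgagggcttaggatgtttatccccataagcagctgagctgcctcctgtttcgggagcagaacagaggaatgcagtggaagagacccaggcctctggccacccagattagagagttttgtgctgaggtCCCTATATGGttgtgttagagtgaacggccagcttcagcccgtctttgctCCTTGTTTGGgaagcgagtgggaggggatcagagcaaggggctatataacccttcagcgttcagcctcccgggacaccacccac
Cnn1, chr9:22099003-22099302, plus strand: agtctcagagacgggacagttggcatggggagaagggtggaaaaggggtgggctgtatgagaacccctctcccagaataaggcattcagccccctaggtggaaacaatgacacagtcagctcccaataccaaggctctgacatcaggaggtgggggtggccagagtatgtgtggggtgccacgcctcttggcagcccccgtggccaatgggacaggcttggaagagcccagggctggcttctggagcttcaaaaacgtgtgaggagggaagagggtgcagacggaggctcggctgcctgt
Des, chr1:75360042-75360341, plus strand: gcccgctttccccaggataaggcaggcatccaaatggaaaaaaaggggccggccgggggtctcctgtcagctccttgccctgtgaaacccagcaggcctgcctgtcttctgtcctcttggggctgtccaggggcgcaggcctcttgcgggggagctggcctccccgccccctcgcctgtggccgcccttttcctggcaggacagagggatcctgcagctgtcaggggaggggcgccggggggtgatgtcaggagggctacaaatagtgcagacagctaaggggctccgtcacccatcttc

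The Acta2 window held 2 CArG-like elements, CCCTATATGG from 84 bases before the start and CCTTGTTTGG from 34 bases before it. The letters of an exact CArG box were not in any of the 4 windows, and CArG-like letters were not in those of Cnn1, Des and Lmod1. Both patterns read the same on either strand by their rule, and a run counts as exact or as CArG-like, never as both. Of 32851 promoter windows in the table, 535 (1.63%) held an exact CArG box and 2792 (8.5%) a CArG-like element. A match describes letters in this window and is no evidence of binding.

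The values are MAS5 signals, the brightness of a probe set on a linear scale. Changes are differences of log2(signal + 25.9) between stage means, with the standard error (SE) of a limma fit over all genes. This scale understates changes of genes with low signal. A gene was called, and is said to have risen or fallen, where it changed at least 2-fold with a Benjamini-Hochberg adjusted p below 0.05 over all 14045 genes tested. The series' design describes the arrays of a stage as biological replications, whose spread is therefore that of embryo pools. Their small number limits precision. The 20 arrays form a pair of sets. The 12 earlier arrays, up to E10.5, had median signals of 67.2 to 91.1, and the 8 later ones, from E12.5, of 156 to 178. Wherever a stage of one set is compared with a stage of the other, array set and stage cannot be told apart.

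Of the 8 genes, 7 were tested. A gene was tested where its brightest probe set exceeded the array median on at least 2 arrays. Acta2, Tagln and Des exceeded it on all 20 arrays, Actg2 on 16, Cnn1 on 15 and Myocd on 8, and none of these 3 did so at E7.5. The 8 arrays of Myocd were at E8.5, E9.5 and E10.5, and the 6 on which Myh11 exceeded it were all at E14.5 to E18.5. These 2 genes thus entered the test only through stages where they were high. Lmod1 exceeded it on no array. Acta2, Myh11, Des and Myocd have further probe sets with low signals. The highest value of the extra sets was 98.8 for Acta2, 47.3 for Myh11, 86.7 for Des and 55.4 for Myocd, and none of these sets passed the filter. Across the 8 stages all 7 tested members were called in limma's moderated F test, against 67.9% of all genes tested.

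**Figure D1:**
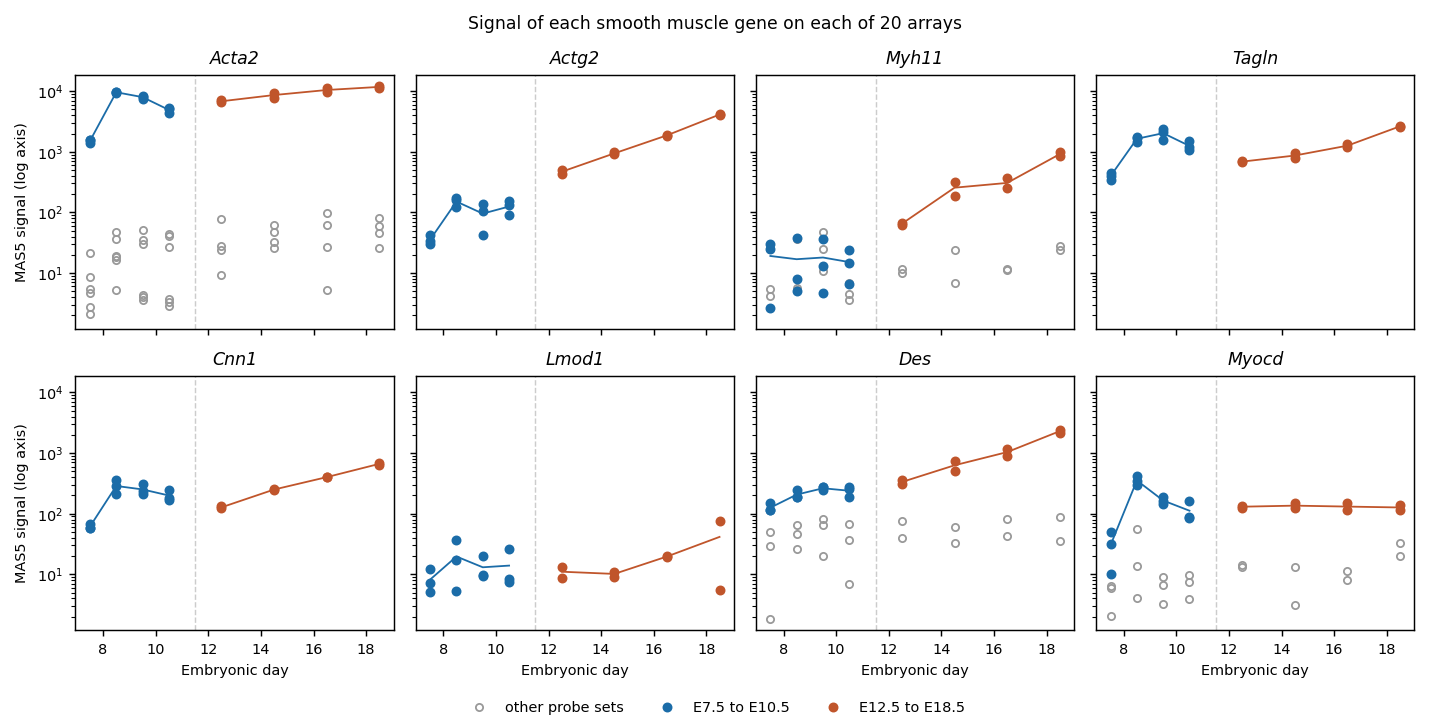
MAS5 signal (log axis) of each gene against embryonic day, 1 point per array. Filled points are the probe set used, blue for the earlier array set and orange for the later, with lines through the stage means. Open grey points are the other probe sets of the gene, none of which exceeds 98.8. Acta2, Tagln, Cnn1, Actg2 and Myocd step up between E7.5 and E8.5, and Myh11, Actg2, Des, Cnn1 and Tagln climb through the later set.

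The actin of vascular smooth muscle was high from E8.5 on. Acta2 signals were 1543, 1583 and 1400 on the arrays of E7.5, 9749, 9749 and 9276 at E8.5, 7521, 8262 and 8127 at E9.5, and 4418, 5133 and 5179 at E10.5. They were 6573 and 7051 at E12.5, 7785 and 9469 at E14.5, 9735 and 11160 at E16.5, and 11399 and 12120 at E18.5. All E8.5 arrays lie above all other arrays of the first set, and each later stage of the second set lies above the stage before it. Acta2 rose 6.27-fold from E7.5 to E8.5 (log2 change 2.65 ± 0.09 SE, limma adjusted p = 7.0e-15). Between E9.5 and E10.5 its change was -0.70 ± 0.09 (limma adjusted p = 1.1e-05), short of 2-fold. Over E12.5 to E18.5 it was 0.79 ± 0.11 (limma adjusted p = 4.2e-06), also under the 2-fold limit. Ordered by mean, E16.5 overlapped E8.5, E8.5 overlapped E14.5 and E14.5 overlapped E9.5, whereas E18.5 stood apart at the top, and E12.5, E10.5 and E7.5 each stood apart below.

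The name of the Acta2 probe set ends in _s_at, a suffix that Affymetrix gave to sets whose probes can also match transcripts of other genes. The actins of heart and skeletal muscle, Actc1 and Acta1, are close relatives and moved as well. Actc1 had a mean of 292 at E7.5 and 18902 at E8.5 (log2 change 5.90 ± 0.12), 12284 at E10.5, 11192 at E12.5 and 26597 at E18.5. Acta1 went from 169 at E7.5 to 1460 at E8.5 (2.93 ± 0.08) and from 2547 at E12.5 to 33793 at E18.5 (3.72 ± 0.10). Their part in the Acta2 signal was not tested. The cytoskeletal actins, Actb and Actg1, were not called from E7.5 to E8.5 (0.01 ± 0.18 and -0.04 ± 0.15) or from E12.5 to E18.5 (0.32 ± 0.22 and -0.06 ± 0.18).

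The visceral actin followed another course. Actg2 signals were 42.8, 29.7 and 34.1 at E7.5, 121, 161 and 171 at E8.5, 43.1, 107 and 136 at E9.5, and 89.6, 155 and 130 at E10.5. They then stood at 503 and 433 at E12.5, 903 and 979 at E14.5, 1844 and 1888 at E16.5, and 4061 and 4159 at E18.5. The stages of the second set do not overlap and each lies above the one before, while E8.5, E9.5 and E10.5 overlap one another. Actg2 rose from E7.5 to E8.5 (1.52 ± 0.23, limma adjusted p = 2.5e-05) and from E12.5 to E18.5, where it gained 3.07 ± 0.28 (8.39-fold, limma adjusted p = 2.6e-08). The Acta2 change over the same span was 0.79 ± 0.11, and the difference between these changes was not tested. With a pseudocount 4 times larger the first rise was 0.87, below 2-fold.

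Myh11, the heavy chain by which mature smooth muscle is most often recognised, stayed low on all early arrays. Its signals were 29.8, 24.8 and 2.65 at E7.5, 8.11, 5.04 and 37.5 at E8.5, 36.5, 4.71 and 12.8 at E9.5, and 14.48, 6.57 and 24.3 at E10.5. From E12.5 they were 62.4 and 67.6, then 190 and 321 at E14.5, 362 and 249.97 at E16.5, and 854 and 973 at E18.5. The early stages overlap completely, E14.5 and E16.5 overlap each other, and E18.5 stands above all. The changes at the first 3 steps were -0.09 ± 0.34, 0.05 ± 0.34 and -0.06 ± 0.34. Myh11 rose from E12.5 to E18.5 by 3.37 ± 0.42 (10.3-fold, limma adjusted p = 1.3e-06), a call kept with every array left out in turn.

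The single steps of Myh11 were less firm than its whole climb. It was called from E10.5 to E12.5 (1.17 ± 0.38, limma adjusted p = 0.016), across the array sets, and not after quantile normalization (0.71, adjusted p = 0.19), scaling by the 75th percentile (0.97), with a pseudocount 4 times larger (0.51) or with the mean of all probe sets (0.71). It was called from E12.5 to E14.5 (1.59 ± 0.42, limma adjusted p = 0.017), and not without E12.5 replicate 1 (adjusted p = 0.12), E12.5 replicate 2 (0.089) or E14.5 replicate 2 (0.22), after quantile normalization (0.058), with a pseudocount 4 times smaller (0.15) or with the mean of all probe sets (0.081). Its other probe set lay below the 25th percentile of the array on 17 of 20 arrays. Among the non-muscle heavy chains, Myh10 fell from E12.5 to E18.5 (-1.07 ± 0.12), Myh14 rose (1.86 ± 0.37) and Myh9 was not called (0.53 ± 0.13).

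Transgelin and calponin, which bind actin filaments and are among the first proteins of differentiating smooth muscle, shared an early step with Acta2. Tagln signals were 395, 345 and 453 at E7.5, 1715, 1749 and 1447 at E8.5, 2148, 2375 and 1559 at E9.5, and 1485, 1063 and 1195 at E10.5. In the second set they were 675 and 700 at E12.5, 939 and 794 at E14.5, 1333 and 1186 at E16.5, and 2692 and 2563 at E18.5. Tagln was thus high at E8.5 and E9.5, which overlap, low at E12.5 and high again at E18.5. It rose by 1.98 ± 0.14 from E7.5 to E8.5 (limma adjusted p = 8.6e-10) and by 1.90 ± 0.17 from E12.5 to E18.5 (2.2e-08). The change from E9.5 to E10.5 was -0.68 ± 0.14 (limma adjusted p = 0.0019), and that from E10.5 to E12.5, across the array sets, was -0.82 ± 0.16 (2.8e-04). Neither reached 2-fold, although scaling by the 75th percentile made the latter -1.07.

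Cnn1 signals were 58.6, 58.2 and 67.4 at E7.5, 356, 215 and 289 at E8.5, 304, 239 and 211 at E9.5, and 249, 171 and 180 at E10.5. They were 122 and 133 at E12.5, 244 and 257 at E14.5, 396 and 406 at E16.5, and 646 and 683 at E18.5. E8.5, E9.5 and E14.5 overlap, as E14.5 does with E10.5, and the last 2 stages stand apart at the top. Cnn1 rose by 1.82 ± 0.18 from E7.5 to E8.5 (limma adjusted p = 8.6e-08) and by 2.17 ± 0.22 from E12.5 to E18.5 (8.5e-08). Its change of -0.54 ± 0.20 between E10.5 and E12.5 became -1.05 (adjusted p = 1.1e-04) after quantile normalization.

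Relatives of these proteins included genes that rose, fell or were not called from E12.5 to E18.5. Cnn2 and Cnn3, calponins of many cell types, were not called, at -0.60 ± 0.10 and -0.42 ± 0.13. The transgelin Tagln3, known from neurons, fell by 2.10 ± 0.19 on the log2 scale over that span, and Tagln2 rose by 1.10 ± 0.16. None of these differences from Cnn1 or Tagln was tested. Of the leiomodins, Lmod2 and Lmod3 of striated muscle rose by 3.35 ± 0.50 and 2.60 ± 0.33. Lmod1, the leiomodin of smooth muscle, had signals between 5.09 and 36.7 in the earlier array set and between 5.595 and 77.3 in the later one. The highest of these was 1 array of E18.5, whose other array was the lowest of the later set. The single Lmod1 probe set lay below the 25th percentile on 18 of 20 arrays, so whether Lmod1 changed was not detectable here. With no filter its change from E12.5 to E18.5 was 0.63 (limma adjusted p = 0.25).

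Desmin rose late. Des signals were 114, 114 and 149 at E7.5, 244, 185 and 191 at E8.5, 272, 272 and 245 at E9.5, and 273, 188 and 257 at E10.5. They went on at 357 and 311 at E12.5, 505 and 754 at E14.5, 1180 and 896 at E16.5, and 2177 and 2423 at E18.5. E8.5 overlaps E10.5 and E10.5 overlaps E9.5, whereas every stage from E12.5 on lies wholly above the stage before it. The step from E10.5 to E12.5 crosses the array sets and was not called (0.45 ± 0.19, limma adjusted p = 0.055). The change from E7.5 to E8.5 was 0.61 ± 0.17 (limma adjusted p = 0.0065), under 2-fold. Des rose from E12.5 to E18.5 by 2.69 ± 0.21 (6.47-fold, limma adjusted p = 1.8e-09). Of the related intermediate filament genes, Vim had mean signals of 5066 at E7.5, 23117 at E10.5, 15510 at E12.5 and 17800 at E18.5. Those of Nes at these stages were 91.6, 1037, 949 and 626.

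Myocd, the coactivator, had its highest signals at E8.5. They were 10.3, 49.9 and 31.1 at E7.5, 293, 420 and 347 at E8.5, 147, 161 and 187 at E9.5, and 88.4, 84.0 and 164 at E10.5. From E12.5 on all 8 arrays lay between 113 and 149. E8.5 stands above every other array, and the stages from E9.5 to E18.5 overlap their neighbours in the order of means. Myocd rose by 2.80 ± 0.26 from E7.5 to E8.5 (6.98-fold, limma adjusted p = 3.2e-08). In a comparison added after the values were seen, it fell from E8.5 to E10.5 (-1.49 ± 0.26, limma adjusted p = 9.8e-05), which the mean of both probe sets put just under 2-fold (-0.99). Between E12.5 and E18.5 its change was -0.04 ± 0.32, and the later signals lie below the array medians, so a small change would not be visible there.

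**Figure D2:**
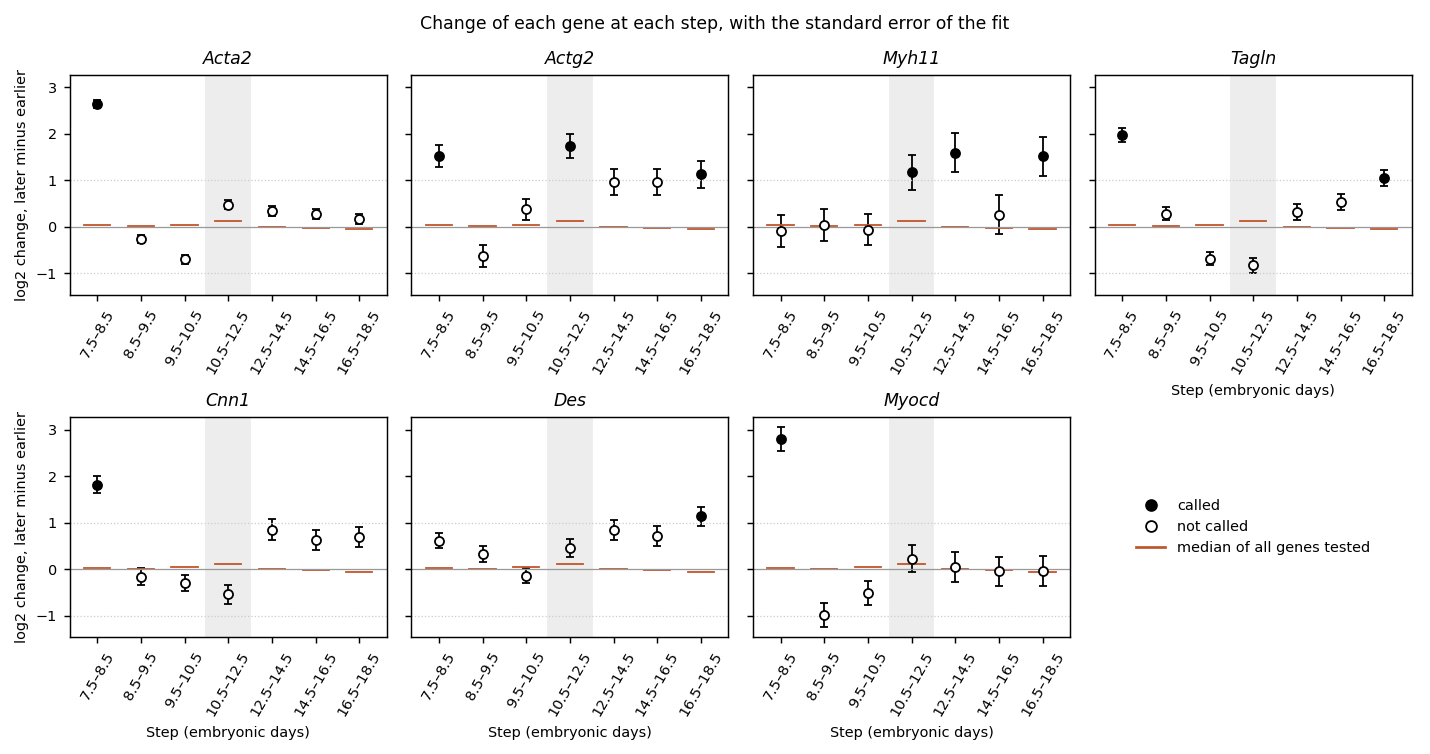
Change of the 7 tested genes at each step between neighbouring stages, as log2 later minus earlier with the SE of the fit; filled points were called, dotted lines mark 2-fold and orange bars the median of all genes tested. The grey band is the step across the array sets. The first step holds the called rises of Acta2 (2.65), Myocd (2.80), Tagln (1.98), Cnn1 (1.82) and Actg2 (1.52), and the last step those of Myh11 (1.52), Des (1.14), Actg2 (1.13) and Tagln (1.05).

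Step by step, most called rises lay at the first step and at the last. From E7.5 to E8.5, 5 members rose, Acta2, Tagln, Cnn1, Actg2 and Myocd, where 6.27% of all genes tested rose. The median change of the 7 was 1.82, against 0.03 over all genes. Because Myocd could pass the filter only where it was high, the count without it was 4 of 6. The count was 5 with each array left out. From E8.5 to E9.5 and from E9.5 to E10.5 limma called 0 members. Here 3 and 2 members had an unadjusted p below 0.05, all of them lower at the later stage, as were 12.7% and 11.9% of all genes by the same rule, and 4.17% and 3.66% of all genes were called. Acta2 and Myocd from E8.5 to E9.5 (limma adjusted p = 0.042 and 0.011) missed a call only by the 2-fold limit. So did Acta2 and Tagln from E9.5 to E10.5 (1.1e-05 and 0.0019). Myocd was the nearest to a call, at -0.98 ± 0.26 from E8.5 to E9.5, and it was called there without E8.5 replicate 1 (-1.10) or E9.5 replicate 3 (-1.07).

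Over the first array set as a whole, E10.5 against E7.5, the same 5 members rose, where 16.0% of all genes rose. Without Myocd, which could pass the filter only where it was high, the count was 4. The changes of the 5 were 1.68 ± 0.09 for Acta2, 1.58 ± 0.14 for Tagln, 1.36 ± 0.18 for Cnn1, 1.28 ± 0.23 for Actg2 and 1.31 ± 0.26 for Myocd. With a pseudocount 4 times larger only Acta2 and Tagln of these were called, with the mean of all probe sets Tagln, Cnn1 and Actg2, and after quantile normalization Cnn1 was at 0.96, under 2-fold. E10.5 and E8.5, compared after the values were seen, differed by a call in Myocd alone, where 3.16% of all genes fell. Myocd passed the filter only through E8.5 to E10.5, and apart from it no member was called here. Acta2 changed by -0.97 ± 0.09 (limma adjusted p = 3.0e-08), and was called as well without E10.5 replicate 3 (-1.01) or with scaling by the 75th percentile (-1.08).

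Across the array sets, from E10.5 to E12.5, Actg2 (1.73 ± 0.26, limma adjusted p = 2.1e-05) and Myh11 rose, where 10.6% of all genes rose. Myh11 was not called without E10.5 replicate 2 (adjusted p = 0.056), E12.5 replicate 1 (0.069) or E12.5 replicate 2 (0.087). From E12.5 to E14.5 Myh11 rose, against 3.28% of all genes. Myh11 could pass the filter only through E14.5 to E18.5, where it was high. Apart from it no member was called at this step, and Actg2 alone from E10.5 to E12.5. From E12.5 to E14.5 Cnn1, Actg2 and Des missed a call only by the 2-fold limit. Their changes were 0.85 ± 0.22 (limma adjusted p = 0.015), 0.97 ± 0.28 (0.032) and 0.84 ± 0.21 (0.011). Without E14.5 replicate 1 Des was called as well from E12.5 to E14.5 (1.12). From E14.5 to E16.5 limma called 0 members where 3.78% of all genes were called. Of the 7, 5 had an unadjusted p below 0.05, all higher at E16.5, as were 11.2% of all genes by the same rule. Actg2 (0.97 ± 0.28, limma adjusted p = 0.034) and Des (0.71 ± 0.21, 0.031) missed a call only by the 2-fold limit.

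At the last step, from E16.5 to E18.5, 4 members rose where 3.52% of all genes did. They were Myh11 (1.52 ± 0.42, limma adjusted p = 0.016), Des (1.14 ± 0.21, 6.1e-04), Actg2 (1.13 ± 0.28, 0.0091) and Tagln (1.05 ± 0.17, 2.6e-04). Cnn1 changed by 0.69 ± 0.22, Acta2 by 0.17 ± 0.11 and Myocd by -0.04 ± 0.32. This count rests on few arrays. Without E16.5 replicate 2 it was 0, since the changes of Tagln (0.96) and Des (0.94) passed under 2-fold and Actg2 and Myh11 had adjusted p of 0.053 and 0.15. Without either E18.5 array it was 2, Tagln and Des. Without E16.5 replicate 1 Actg2 was not called (adjusted p = 0.061). A pseudocount 4 times smaller ended the call of Myh11 (adjusted p = 0.19). The mean of all probe sets also gave 2, Tagln and Actg2.

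Over the second set as a whole, E18.5 against E12.5, Myh11, Actg2, Des, Cnn1 and Tagln rose, 5 of the 7 tested, where 15.2% of all genes rose. The median change of the 7 was 2.17, against -0.09 over all genes. The count was 4 of 6 without Myh11, which could pass the filter only where it was high, and 5 with each array left out.

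Markers of other cell types were followed over the same spans. All 16 genes of a cardiac marker list rose from E7.5 to E8.5 (median 3.56), where 6.27% of all genes rose, and their summed signal went from between 2210 and 2521 to between 49623 and 54170. It stood at 31906 to 38907 at E10.5, 29755 to 30143 at E12.5 and 58598 to 59606 at E18.5. Of 14 skeletal muscle markers 12 rose from E12.5 to E18.5 (median 3.57), where 15.2% of all genes rose, with a summed signal of 15712 to 15939 at E12.5 and 217044 to 232501 at E18.5. In the cardiac list 6 of 16 rose over that span (median 0.86). The cardiac sum is weighted to its brightest gene, Actc1, with means of 11192 at E12.5 and 26597 at E18.5. No cardiac marker lay below the 25th percentile on all arrays of any stage from E8.5 on. No skeletal marker did so from E10.5 on. Of 8 connective tissue markers 7 rose from E7.5 to E8.5 (median 1.71), where 6.27% of all genes rose. From E12.5 to E18.5, 5 of them rose and 2 fell (median 1.43), where 15.2% of all genes rose and 6.44% fell. Their summed signal was 2830 to 3237 at E7.5, 7128 to 7934 at E8.5, 54022 to 54668 at E12.5 and 132990 to 140291 at E18.5. Of 9 endothelial markers 4 rose from E7.5 to E8.5 (median 0.78), where 6.27% of all genes rose. From E12.5 to E18.5, 2 of the 9 rose (median 0.53), where 15.2% of all genes rose. Their summed signal was 2027 to 2504 at E7.5, 4194 to 4619 at E8.5, 4685 to 4693 at E12.5 and 7479 to 7602 at E18.5. No marker of these 2 lists lay below the 25th percentile on all arrays of a stage. The part of heart, skeletal muscle, connective tissue and endothelium in the signals of the smooth muscle genes was not tested. Of 6 tested trophoblast and decidua markers 5 fell from E7.5 to E8.5, where 4.93% of all genes did, and the summed signal of the list went from between 9191 and 15842 at E7.5 to between 1996 and 3826 at E8.5. How this bears on the low early values of the smooth muscle genes was not tested.

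**Figure D3:**
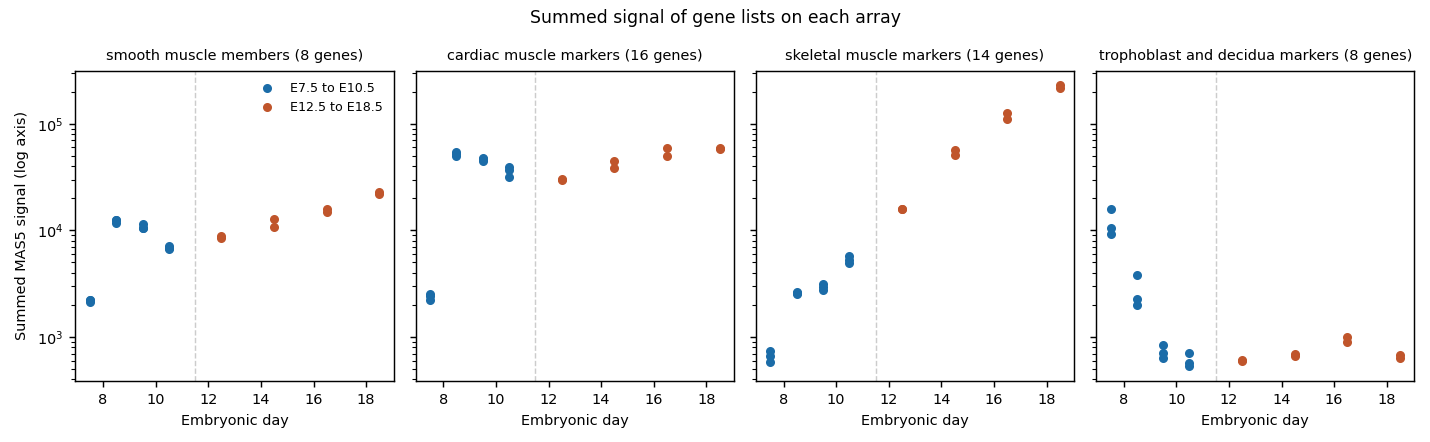
Summed MAS5 signal (log axis) of the smooth muscle genes and of cardiac, skeletal and trophoblast or decidua marker lists on each array, against embryonic day. The cardiac sum jumps between E7.5 and E8.5, the skeletal sum climbs to between 217044 and 232501 at E18.5, and the trophoblast and decidua sum is highest at E7.5.

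Gene profiles most like those of the members were sought over the 20 arrays among 9817 genes whose stage means spanned at least 1 log2 unit. The arrays of a stage share their stage and array set, so these correlations are descriptions. The choice was by Pearson r. By Spearman rank correlation none of the genes named below came first for its member, and their ranks lay between 3 and 232. Acta2 was most like Tnnt2, the cardiac troponin T (Pearson r = 0.98), Unc45b, a myosin chaperone of striated muscle (0.98), and Ifitm2 (0.97). With the mean of each array set removed, Tnnt2 was again the first (0.98). Myocd was most like Ankrd1, a nuclear and sarcomeric protein of heart muscle (0.94), Mybpc3, the cardiac myosin-binding protein C (0.89), and Tbx1, a factor of pharyngeal and outflow tract mesoderm (0.89). Cnn1 was most like Csrp3, a LIM protein of striated muscle (0.96), Sh3bgr (0.95) and Lrrc39 (0.94). For Tagln they were Sh3bgr (0.93), 2610528A11Rik (0.91) and Rnf217 (0.91).

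Actg2, Des and Myh11 had other neighbours. Actg2 was most like Hrc, a calcium-binding protein of the sarcoplasmic reticulum (0.99), Eln, the elastin of arterial walls and lung (0.99), and Lbp, a plasma protein that binds lipopolysaccharide (0.98). Des was most like Cox6a2, a cytochrome oxidase subunit of striated muscle (0.98), Ugp2 (0.98) and Pygm, the muscle glycogen phosphorylase (0.98). By Spearman these 3 ranked 128, 95 and 232. Myh11 was most like F13b, a coagulation factor subunit (0.98), Myom2, a sarcomeric M-band protein (0.98), and Srpx2 (0.98), ranking 8, 19 and 166 by Spearman. None of the genes so named was itself a member. Removing the mean of each array set lowered the values for Actg2 to between 0.91 and 0.96, and those for Myh11 to 0.91 each.

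Among the members, the closest profiles over 20 arrays were those of Actg2 and Des (r = 0.95), Myh11 and Des (0.93) and Myh11 and Actg2 (0.92). Next came Acta2 with Cnn1 and Tagln with Cnn1, each at 0.87. Myocd was near to Acta2 (0.80) and far from Myh11 (0.003) and Des (0.17). With array set means removed Tagln and Cnn1 reached 0.94 and Acta2 and Myocd 0.89, while Myh11 and Actg2 dropped to 0.67.

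**Figure D4:**
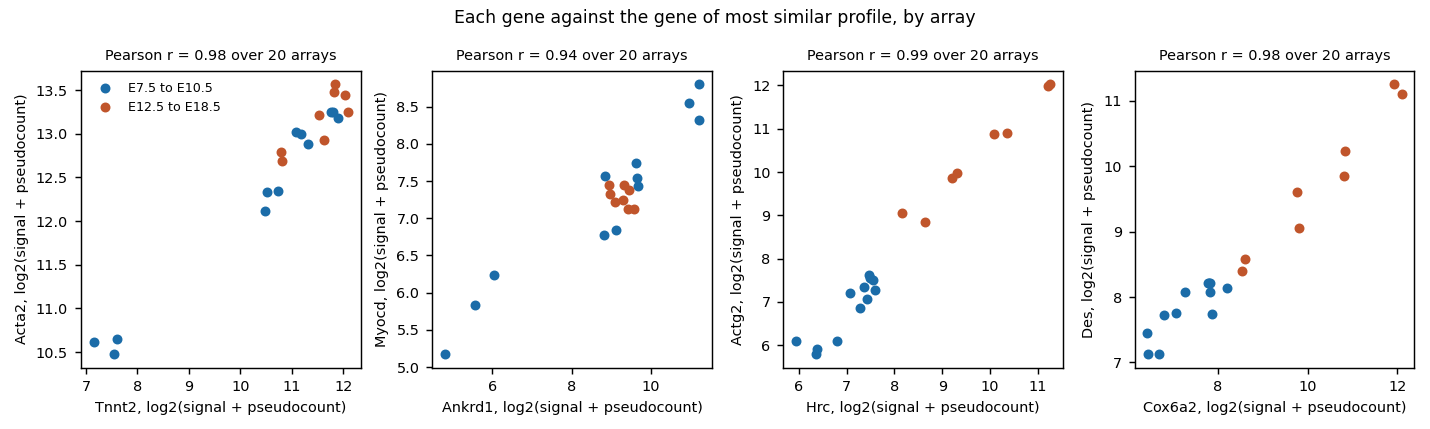
Acta2, Myocd, Actg2 and Des against the gene of most similar profile, both as log2(signal + pseudocount), 1 point per array, blue for the earlier array set and orange for the later. Acta2 and Tnnt2 have r = 0.98 over all 20 arrays, although at E18.5 Tnnt2 lies below and Acta2 above its values at E16.5. Myocd and Ankrd1 are highest together on the E8.5 arrays.

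The partners of these proteins in the contractile apparatus were taken from a list of 24 genes, of which 22 were tested. From E7.5 to E10.5, 9 of the 22 rose, where 16.0% of all genes rose, at a median of 0.66 against 0.11 over all genes. Pgm5, a protein of muscle adhesion plaques, rose by 3.33 ± 0.16, Myl9, the regulatory light chain of smooth muscle myosin, by 2.48 ± 0.07, Mylk, the kinase that switches this light chain on, by 2.37 ± 0.27, and Pdlim3, a protein of actin bundles, by 2.29 ± 0.20. Later, between E12.5 and E18.5, 11 of the 22 rose, where 15.2% of all genes rose, at a median of 0.98 against -0.09. Among them were Aoc3, a vascular amine oxidase (3.84 ± 0.41), Hspb6, a small heat shock protein of muscle (2.92 ± 0.28), Synpo2, an actin-binding protein (2.91 ± 0.29), and Pdlim3 (2.66 ± 0.24). All these calls had limma adjusted p of 2.7e-07 or less. Pgm5 at E7.5 (mean 6.34) and Aoc3 at E12.5 (mean 19.7) lay below the 25th percentile on all arrays, so the sizes of their changes rest on low baselines and on the pseudocount. The count of 11 includes Aoc3, which could pass the filter only through E16.5 and E18.5, where it was high.

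**Figure D5:**
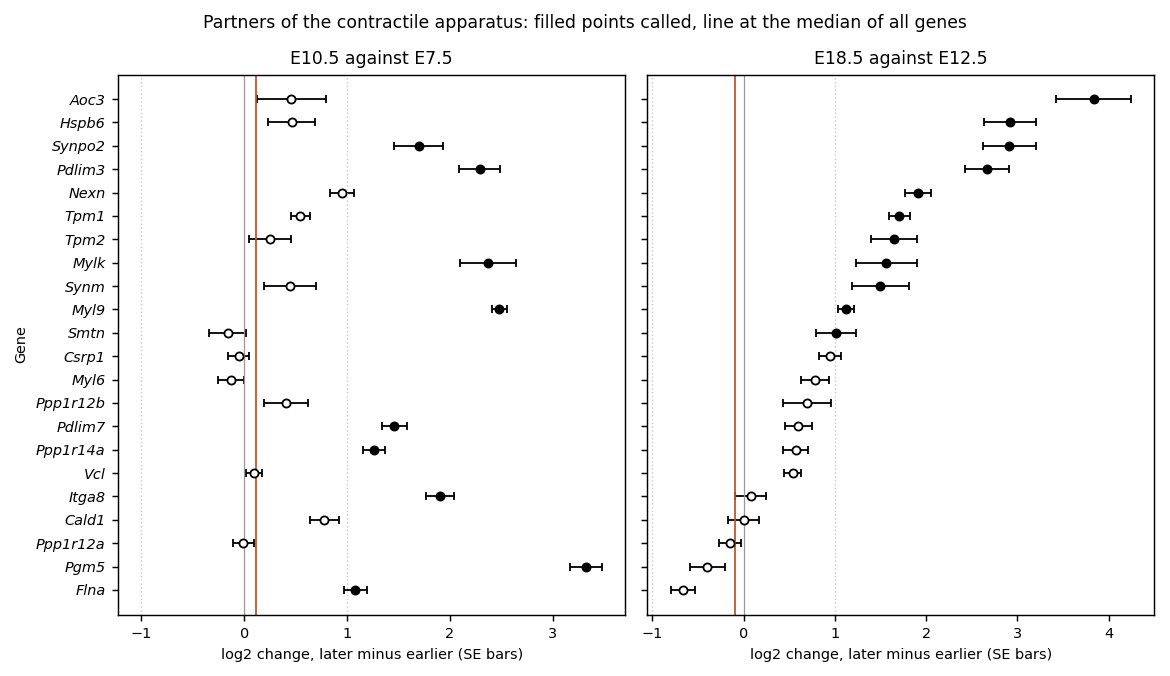
Change of 22 partners of the contractile apparatus over each array set, as log2 later minus earlier with the SE of the fit; filled points were called, dotted lines mark 2-fold and the orange line is the median of all genes. Filled points number 9 of 22 from E7.5 to E10.5 and 11 of 22 from E12.5 to E18.5. The changes of Pgm5 in the first and Aoc3 in the second start from signals below the 25th percentile.

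The regulators included genes that rose and genes that fell. Srf and its cofactors are named although their values were seen first and they were not called. Srf, the DNA-binding partner of myocardin, changed by 0.36 ± 0.11 from E7.5 to E8.5 and by 0.24 ± 0.13 from E12.5 to E18.5. Over the same spans the myocardin relative Mrtfa was at 0.31 ± 0.12 and -0.25 ± 0.15, and Mrtfb at 0.55 ± 0.10 and 0.01 ± 0.13. Of 19 tested regulators 10 rose and 1 fell from E7.5 to E10.5, where 16.0% of all genes rose and 7.49% fell. The largest rises were Tbx18, a T-box factor of mural cell precursors (3.56 ± 0.22), Prkg1, the kinase through which cyclic GMP relaxes smooth muscle (3.11 ± 0.12), Barx1, a homeobox factor of stomach mesenchyme (2.24 ± 0.27), and Hey1, a Notch target (1.96 ± 0.15). Between E12.5 and E18.5, 3 rose and 4 fell, where 15.2% of all genes rose and 6.44% fell. Among them were Klf4, which can repress smooth muscle genes and is also made in epidermis (1.72 ± 0.22), Barx1 (-1.63 ± 0.33), Tbx18 (-1.56 ± 0.27) and Hey2 (-1.45 ± 0.24). All these calls had limma adjusted p of 3.4e-04 or less.

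Pericytes and other mural cells, which wrap small vessels and also make Acta2 and Des, were represented by 10 markers, 9 of them tested. From E7.5 to E10.5, 5 rose, where 16.0% of all genes rose, with Abcc9, a potassium channel subunit, at 3.09 ± 0.24, Angpt1, a ligand of the endothelial receptor Tek, at 2.37 ± 0.15, Mcam at 2.14 ± 0.24 and Pdgfrb, the receptor that recruits pericytes, at 2.14 ± 0.13. Between E12.5 and E18.5, 5 rose as well, where 15.2% of all genes did, with Ndufa4l2 at 2.97 ± 0.27, Anpep at 2.41 ± 0.40, Abcc9 at 2.04 ± 0.30 and Rgs5, a regulator of G protein signalling, at 1.79 ± 0.13. All these calls had limma adjusted p of 4.5e-05 or less. In each span 7 of the 9 changes lay above 0. Limma called 0 falls, where 7.49% and 6.44% of all genes fell. Mean signals of Rgs5 and Ndufa4l2 went down from 659 and 171 at E7.5 to 547 and 141 at E10.5. Those of Pdgfrb and Angpt1 went down from 1623 and 538 at E12.5 to 1222 and 374 at E18.5. The summed signal of the 10 markers was 1309 to 1535 at E7.5, 2963 to 3641 at E10.5, 4493 to 4611 at E12.5 and 10512 to 10588 at E18.5. Their part in the Acta2 and Des signals was not tested.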

How the data were processed

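The authors deposited intensity values, a linear MAS5 signal for each probe set, per the submitters' processing notes, with version and settings not given in the sources used here. The mean without the lowest and highest 2% was 500.0 on every array, so each had been scaled to it. No further normalization was applied. Probe sets came with a platform annotation, 34958 with a single symbol, 932 with several and 9211 with none; Entrez identifiers matched a RefSeq table for 34754 and changed 0 symbols. A gene was represented by the probe set of highest mean log2(signal + 25.9), the pseudocount being the median of the arrays' 25th percentiles. Stage means of all 20 arrays were fitted by limma 3.58.1 in R 4.3.3 (eBayes with trend, 12 residual degrees of freedom, two-sided), checked on simulated data. The members and lists were chosen with earlier results of these data known. Named genes were all members, the 3 most correlated genes per member, all family relatives, and up to 4 called list genes of largest change per long comparison. Correlations between same-numbered arrays, as deviations from stage means, reached at most 0.28, which does not exclude a pairing. Alternatives were other normalizations, pseudocounts, filters, probe set summaries, fold limits and fits, and each array left out.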

Additional observations from a re-analysis of the deposited data

How the results depend on the processing

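Array number, the 2 array sets and low signals (Lmod1, early Myh11, late Myocd) limit these results. No called change of a member reversed under any alternative run. Of 823 member changes recomputed under other settings 778 kept their side of the threshold, 18 lost and 27 gained a call, and of 1400 with an array left out 1381 kept it. Below threshold, 10 and 22 turned sign. The number of members called moved by more than 1.5 times, from main to alternative, as follows. Quantile normalization: E16.5 against E14.5 from 0 to 1. Scaling by the 75th percentile: E9.5 against E8.5 from 0 to 1, E16.5 against E14.5 from 0 to 1, E10.5 against E8.5 from 1 to 2. Pseudocount 4 times smaller: E9.5 against E8.5 from 0 to 1, E14.5 against E12.5 from 1 to 0; 4 times larger: E12.5 against E10.5 from 2 to 1, E10.5 against E7.5 from 5 to 2. Filter at the 75th percentile: E10.5 against E8.5 from 1 to 0. Mean of all probe sets: E12.5 against E10.5 from 2 to 1, E14.5 against E12.5 from 1 to 0, E18.5 against E16.5 from 4 to 2, E10.5 against E7.5 from 5 to 3, E10.5 against E8.5 from 1 to 0. No minimum fold: E9.5 against E8.5 from 0 to 2, E10.5 against E9.5 from 0 to 2, E12.5 against E10.5 from 2 to 5, E14.5 against E12.5 from 1 to 4, E16.5 against E14.5 from 0 to 2, E10.5 against E8.5 from 1 to 4. Smaller moves were, with no minimum fold, E8.5 against E7.5 from 5 to 6, E10.5 against E7.5 from 5 to 6, E18.5 against E12.5 from 5 to 6 and E18.5 against E16.5 from 4 to 5. Quantile normalization took E10.5 against E7.5 from 5 to 4, the smaller pseudocount E18.5 against E16.5 from 4 to 3, and the larger E8.5 against E7.5 from 5 to 4. The filter at the 75th percentile, which Myocd did not pass, took E8.5 against E7.5 and E10.5 against E7.5 from 5 to 4 and the F test from 7 to 6. Leaving out an array gave 0 to 1 at E9.5 against E8.5, 1 to 2 at E12.5 against E10.5, 0 to 2 at E14.5 against E12.5, 0 to 4 at E18.5 against E16.5 and 1 to 2 at E10.5 against E8.5. After quantile normalization the counts of 2 at E12.5 against E10.5 and 1 at E14.5 against E12.5 held other genes, Actg2 with a fall of Cnn1, and Actg2 in place of Myh11. Apart from arithmetic (no minimum fold, fewer genes or arrays) the cause was not tested. With the replicate number as a block the counts of every comparison and all 70 member changes kept their side. Deviations of same-numbered arrays from their stage means correlated at -0.07 to 0.28. For replicates 1, 2 and 3, 10 of 28, 3 of 28 and 0 of 6 pairs were over 0.1. At stages with 2 arrays the deviations mirror each other, so these counts are not independent. They cannot decide whether the replicate numbers pair the samples.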
